A study of Mus musculus with 20 samples.

Results

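The 8 genes described here, Sox10, Foxd3, Erbb3, Ngfr, Cdh19, S100b, Gfap and Cryab, are established markers of Schwann cells. They were taken as a list of names and not picked by their values, but with earlier results of these data known. All 8 were among the 26211 genes measured by RNA sequencing in mouse pancreatic islets, the clusters of hormone-secreting cells of the pancreas. The study set 10 libraries from islets of P2Y14-knockout mice (P2Y14-KO) against 10 from wild-type mice (WT), all labelled as C57BL/6 x 129S6. The P2Y14 receptor responds to extracellular UDP and sugar nucleotides, and the knockout label names no driver or restricted cell type. No treatment or age is given for either group, and nothing in the labels ties a library to its own mouse, so p-values measure the spread between libraries. Islets were freed by enzyme, hand-picked and cultured overnight before RNA was taken.

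Schwann cells are the glia of peripheral nerves. They arise from the neural crest, ensheath or myelinate axons, and depend on neuregulin from the axon, which they sense through ERBB3 paired with ERBB2. In the pancreas they lie along nerves and form a mesh around the rim of the islet, so they are a small minority in an islet preparation. Several of their markers are also made by other pancreatic cells: GFAP by stellate cells, ERBB3 by epithelial cells and αB-crystallin, the Cryab product, by many stressed or contractile cells.

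Reads over genes numbered 34520628 to 199847246 per P2Y14-KO library and 53766074 to 168991840 per WT library. Beta cell genes, the check of the islet label, took 28.6% ± 10.0 of reads in P2Y14-KO and 28.8% ± 7.77 in WT libraries, and acinar genes took 8.73% ± 3.74 of reads in P2Y14-KO and 9.25% ± 4.09 in WT libraries (SD, n = 10 each). P2ry14, the targeted gene, had normalized read counts with a lowest value of 0, a median of 44.8 and a highest value of 113.5 in P2Y14-KO, against 79.7, 118 and 262 in WT. Thus 8 of 10 P2Y14-KO libraries lay below every WT library, and 2 did not. Its log2 fold change of -1.97 (SE 0.59) had an adjusted p of 0.244 in limma. Over 8 lists of markers of other cell types, limma and edgeR called 0 genes and DESeq2 called 1, Th. The lists' median log2 fold changes lay between -0.57 for alpha, delta and PP cells and 0.46 for macrophages and dendritic cells. WT library 19 stood apart for the genes described here, and their values without it are given as well.

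All 8 markers were detected, and none differed between genotypes beyond the spread of the libraries. A normalized read count is the read count of a gene divided by a size factor for the library, so levels can be compared between libraries but not between genes of different length. Per kilobase of exon (GENCODE M21 lengths), Cryab was the most abundant at 458 ± 239 in P2Y14-KO and 431 ± 205 in WT. Erbb3 followed at 36.3 ± 16.3 in P2Y14-KO and 35.0 ± 15.2 in WT, then Sox10 at 21.1 ± 13.2 in P2Y14-KO and 16.9 ± 10.5 in WT (SD, n = 10 each). Over both groups together the per-kilobase level was 445 for Cryab, 35.7 for Erbb3 and 18.97 for Sox10. The rest had 12.8 for S100b, 9.43 for Cdh19, 7.56 for Ngfr, 6.64 for Gfap and 5.80 for Foxd3. Cryab stood clear of Erbb3 by more than the SD of either. Erbb3 and Sox10 differed by more than the SD of Erbb3 in WT and by less in P2Y14-KO, and from Sox10 downward neighbours in this order differed by less than 1 SD of the higher gene.

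Sox10 and Foxd3 are transcription factors of the glial lineage. Sox10, the factor that specifies and maintains neural crest glia, had a lowest normalized read count of 1.94, a median of 81.1 and a highest of 123 in P2Y14-KO, against 0, 42.1 and 103 in WT. The P2Y14-KO libraries spread from nearly none to the highest value of the series, and the groups overlapped over almost the whole range. The means were 64.3 ± 40.2 in P2Y14-KO and 51.5 ± 32.0 in WT (SD, n = 10 each). In limma the log2 fold change, P2Y14-KO over WT on the log2(value + 1) scale, was 0.36 (SE 0.74, 95% interval -1.18 to 1.89), and the p adjusted over all genes tested was 0.914. Of all 17482 genes tested, 0.28% passed the threshold, an adjusted p under 0.05. In bulk RNA, fewer Schwann cells and less of a transcript per cell cannot be told apart. Without WT library 19, which had no Sox10 read, the log2 fold change was -0.22.

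Foxd3, a forkhead factor of neural crest precursors that is low in mature Schwann cells, had values of 0, 16.7 and 40.7 in P2Y14-KO, against 0, 8.03 and 31.0 in WT (lowest, median, highest). It was the rarest of the 8, with no read in 2 P2Y14-KO libraries and 2 WT libraries, and the groups overlapped. Its log2 fold change of 0.45 (SE 0.77, interval -1.16 to 2.06) was the largest among the 8, with an adjusted p of 0.891, the smallest among them. The interval corresponds to a ratio between 0.448 and 4.17, and a 2-fold difference in either direction lies inside it. Without WT library 19 the log2 fold change was 0.13.

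Erbb3 encodes the neuregulin receptor of Schwann cells. It had values of 94.4, 205 and 415 in P2Y14-KO, against 106, 186 and 382 in WT, with the highest and lowest library of the series both in P2Y14-KO. The means were 218 ± 98.1 in P2Y14-KO and 211 ± 91.2 in WT (SD, n = 10 each). This gave a log2 fold change of 0.04 (SE 0.27, interval -0.51 to 0.60) and an adjusted p of 0.977. Erbb3 had the narrowest interval of the 8, a ratio between 0.701 and 1.51. Without WT library 19 the log2 fold change was -0.054.

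Ngfr encodes p75, the low-affinity neurotrophin receptor of immature and non-myelinating Schwann cells. Its values were 2.57, 27.0 and 43.1 in P2Y14-KO, against 1.87, 28.1 and 49.3 in WT, and every library had reads. The means were nearly equal, at 26.3 ± 13.7 in P2Y14-KO and 25.8 ± 14.03 in WT (SD, n = 10 each). The log2 fold change was 0.07 (SE 0.51, interval -0.98 to 1.12), with an adjusted p of 0.980. It was -0.25 without WT library 19, where Ngfr had its lowest value. The promoter of Ngfr is shown with that of Gfap because these 2 low-abundance genes behaved differently across libraries: Ngfr had reads in 20 of 20 and Gfap was at 0 in 3. Both windows run from 250 bases before to 50 after the start in RefSeq's GRCm38.p6 table, on the minus strand of chromosome 11, with each CG dinucleotide in capitals. The table held entries for 4 of the 8 genes, these and Foxd3 and S100b.

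Ngfr promoter, chr11:95587649-95587948: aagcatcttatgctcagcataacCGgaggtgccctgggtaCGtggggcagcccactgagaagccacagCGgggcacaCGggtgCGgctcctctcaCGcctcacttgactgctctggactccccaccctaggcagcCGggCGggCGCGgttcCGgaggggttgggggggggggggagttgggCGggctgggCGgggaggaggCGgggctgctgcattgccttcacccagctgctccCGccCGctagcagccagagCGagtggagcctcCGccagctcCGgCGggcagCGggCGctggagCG

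Gfap promoter, chr11:102897151-102897450: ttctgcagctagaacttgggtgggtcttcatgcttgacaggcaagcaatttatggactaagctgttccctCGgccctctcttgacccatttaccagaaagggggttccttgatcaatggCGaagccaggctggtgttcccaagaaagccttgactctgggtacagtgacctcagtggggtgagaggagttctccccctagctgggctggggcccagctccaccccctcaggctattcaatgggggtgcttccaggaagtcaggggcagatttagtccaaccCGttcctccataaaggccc

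The Ngfr window held 23 CG dinucleotides, a number reached by 21.5% of 32851 promoters of the same length, and the motif GGGCGG, the GC box, 4 times over both strands. That motif was present in 35.7% of all promoters. The Gfap window held 3 CG dinucleotides, a number reached by 76.7% of promoters, and no GGGCGG. The Foxd3 window had 25 CG dinucleotides and that of S100b had 3. Neither ACAAAG, a core that SOX factors can bind, nor TATAAA occurred on either strand of the 4 windows, while 18.7% and 13.6% of all promoters held these letters. Whether the letters bear on the levels was not tested.

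Cdh19 encodes a cadherin of Schwann cell precursors, and its log2 fold change was the 1 below 0 among the 8. It had values of 0, 35.9 and 91.4 in P2Y14-KO, against 11.9, 31.3 and 119 in WT, and the groups overlapped apart from P2Y14-KO replicate 6, which had no read. That library had 59066106 reads over genes and the lowest size factor of the series, 0.389, so 3 reads there correspond to 7.71 on the normalized scale. The log2 fold change of -0.31 (SE 0.61, interval -1.58 to 0.97) had an adjusted p of 0.913, and without P2Y14-KO replicate 6 it was 0.23. It stayed below 0 without WT library 19, at -0.43.

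S100b, a calcium-binding protein used to mark Schwann cells and other glia, had values of 0, 13.5 and 69.2 in P2Y14-KO, against 0, 14.8 and 35.4 in WT. Of the P2Y14-KO libraries, 3 exceeded every WT library, while the group medians were close. The means were 22.1 ± 22.04 in P2Y14-KO and 15.8 ± 9.82 in WT (SD, n = 10 each), and the log2 fold change was 0.12 (SE 0.69, interval -1.32 to 1.55) with an adjusted p of 0.974. Leaving out WT library 19, which had no S100b read, turned it to -0.29.

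Gfap, the intermediate filament of non-myelinating Schwann cells, was the most variable of the 8. Its values were 0, 20.4 and 74.5 in P2Y14-KO, against 0, 11.1 and 214 in WT. The WT maximum was a single library, 20, and without it the WT mean was 12.6 ± 11.1 (SD, n = 9) instead of 32.8 ± 64.6 (SD, n = 10), beside a P2Y14-KO mean of 23.3 ± 23.8 (SD, n = 10). On the log scale the fold change was 0.19 (SE 0.93, interval -1.75 to 2.13), with an adjusted p of 0.967. It was -0.19 without WT library 19 and 0.67 without WT library 20. On whole reads edgeR gave -0.41 and DESeq2 -0.47, so its direction was not settled.

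Cryab, a small heat shock protein whose product chaperones desmin and GFAP filaments, was in every library. It had values of 262, 655 and 1447 in P2Y14-KO, against 191, 638 and 1006 in WT. P2Y14-KO replicate 10 lay above all WT libraries, and the remaining values overlapped. The log2 fold change was 0.11 (SE 0.33, interval -0.58 to 0.80), with an adjusted p of 0.946, and without WT library 19 it was -0.032. Cryab shares 252 exon bases, 17.0% of its exons, with the opposite-strand gene Hspb2, and the kit does not mark strand, so Hspb2 values, with a mean of 28.4 over the libraries, are uncertain.

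**Figure D1:**
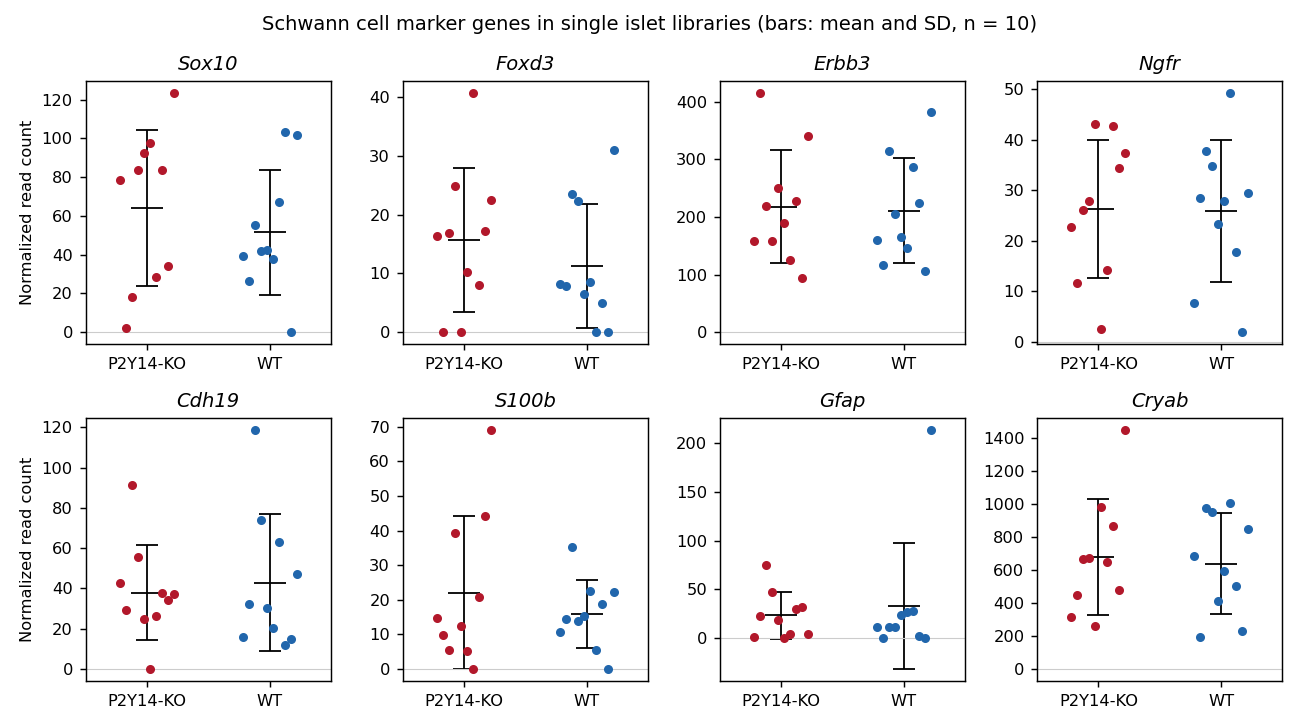
Normalized read counts of the 8 Schwann cell markers in each of 10 P2Y14-KO and 10 WT libraries, one panel per gene and a separate linear axis for each. Points are libraries and bars are mean and SD. Gfap in WT library 20 sits at 214, and P2Y14-KO replicate 10 has the highest Cryab at 1447.

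**Figure D2:**
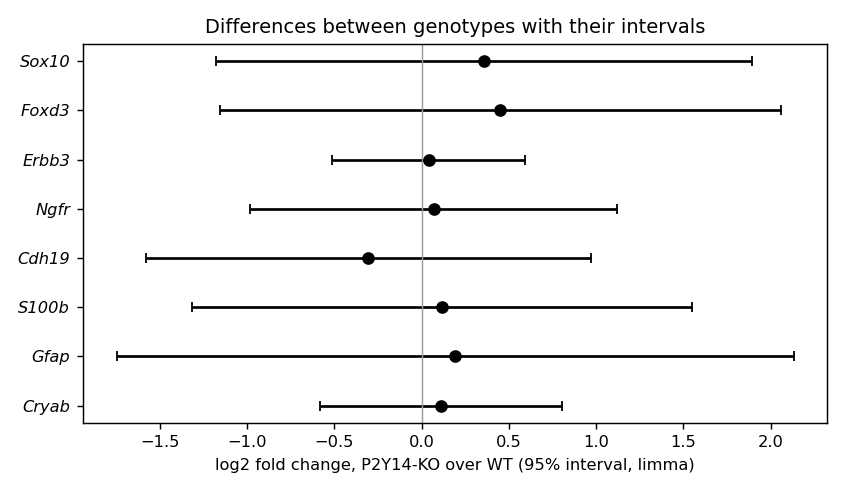
Log2 fold change, P2Y14-KO over WT, of each marker with its 95% interval from limma on log2(value + 1). All 8 intervals include 0, and the narrowest is that of Erbb3, -0.51 to 0.60.

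By limma 0 of the 8 markers passed, and 0 had an unadjusted p under 0.05, a level that 8.94% of all tested genes reached. The edgeR and DESeq2 fits on recovered reads also called 0, as did each of the 34 alternative settings, whose smallest adjusted p was 0.662. Among the 8, 7 log2 fold changes were above 0, with a median of 0.11 beside a median of -0.0022 over all genes. That sign pattern turned with WT library 19: without it 1 of 8 was above 0 and the median was -0.20. With P2Y14-KO replicate 6 left out as well, 4 were above 0.

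The markers varied widely between libraries of the same genotype. WT library 19 was among the lowest 5 of 20 libraries for all 8 genes, and lowest or tied for 5 of them. It had no read of Sox10, S100b, Gfap or Foxd3. Summed over the 6 markers other than Erbb3 and Cryab, it held 16.8 normalized counts from 18 reads, while the other 19 libraries held 74.7 to 446. It was not shallow, with 73747552 reads over genes. In the same library 10 of 15 mesenchymal genes were the lowest of the 20, its summed mesenchymal level of 3518 and myelin level of 3698 were the lowest. Of 9 neuron genes, 4 were the lowest of the 20 libraries and 3 were at 0, and the mean log2 deviation of that list, -1.94, was the lowest. The summed neuron level, 18458, was the highest, with 14247 of it from Th alone. The part of these in the low markers was not tested.

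A few other libraries lacked 1 or 2 markers and held the rest. P2Y14-KO replicate 6 had no read of Gfap or Cdh19, from 45 reads over the 6 low-abundance markers, but a Sox10 level of 97.7. P2Y14-KO replicate 2 had 1 of the lowest Sox10 levels, 1.94, and the highest Erbb3 of the series, 415. P2Y14-KO replicate 10 and WT library 13 were each among the highest 5 libraries for 6 of the 8 genes. The SD between libraries exceeded that from counting alone for each gene. In P2Y14-KO the ratio ran from 2.32 for Ngfr to 11.8 for Cryab. In WT it ran from 2.57 for S100b to 12.5 for Cryab, with Ngfr at 2.88.

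**Figure D3:**
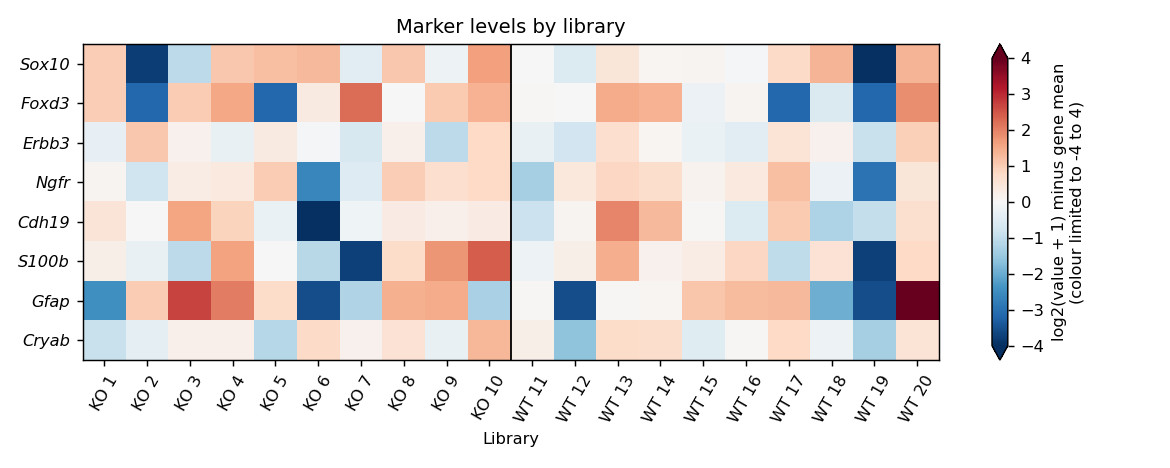
Each marker's log2(value + 1) in each library, minus that gene's mean over all 20 libraries, with P2Y14-KO left of the line and WT right of it. Colours are limited to the range -4 to 4, and WT library 19 is among the lowest 5 libraries for all 8 genes.

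Whether the markers varied together was examined pair by pair. Deviations from the group mean on the log2(value + 1) scale were compared between libraries for the 28 pairs of markers, with permutation within groups. After adjustment 1 pair passed, Ngfr with Cdh19 (Pearson's r = 0.73, permutation p = 0.00061, adjusted p = 0.0171, n = 20). Spearman's rho was 0.57 (permutation p = 0.0106, adjusted p = 0.142). Without the 2 libraries farthest from the median of Ngfr, r was 0.51 (permutation p = 0.0298), and without WT library 19 it was 0.80 (adjusted p = 0.0353). Sox10 with S100b gave r = 0.58 (adjusted p = 0.0887), and Sox10 with Gfap r = 0.19 (adjusted p = 0.509). The only r below 0 was that of Foxd3 with Erbb3, -0.14 (adjusted p = 0.639). With n = 20 and sparse counts, a pair that did not pass is not shown to be unrelated.

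Against 10 lists of marker genes for the cells an islet preparation can hold, 22 of 80 pairs passed, and 8 of them still passed without WT library 19. How particular each list, the 2 of Schwann genes included, is to its cell type in these islets was not tested. Cryab followed acinar genes (r = 0.85, permutation p = 1e-05, the smallest that 100000 resamples can give, adjusted p = 0.0008; rho = 0.80, p = 6e-05; r = 0.82 without the 2 farthest libraries). It followed duct genes as well (r = 0.82, permutation p = 3e-05, adjusted p = 0.00107; rho = 0.86, p = 2e-05; r = 0.73 without those 2). Cryab also passed with macrophage genes (r = 0.65, adjusted p = 0.0152) and ran opposite to beta cell genes (r = -0.60, adjusted p = 0.0288). Spearman's rho for these was 0.69 and -0.70, and r without the 2 farthest libraries was 0.71 and -0.58. With the 2 lists of Schwann genes Cryab did not pass (r = 0.38 with the myelin list and 0.48 with the immature Schwann list).

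Erbb3 ran opposite to beta cell genes (r = -0.81, permutation p = 4e-05, adjusted p = 0.00107; rho = -0.80, p = 6e-05; r = -0.85 without the 2 farthest). It also ran opposite to genes of alpha, delta and PP cells (r = -0.66, permutation p = 0.00159, adjusted p = 0.0106; rho = -0.67, p = 0.00204; r = -0.48 without the 2 farthest). Those endocrine genes themselves had a median log2 fold change of -0.57 between genotypes, and 0 of 10 passed, with 7 at an unadjusted p under 0.05 in the lower direction. Erbb3 went with duct genes (r = 0.67, adjusted p = 0.00989), a relation at r = 0.62 and an adjusted p of 0.0561 without WT library 19. Its correlations with the myelin list, r = 0.51, and the immature Schwann list, r = 0.48, did not pass.

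Sox10 went with mesenchymal genes (r = 0.78, permutation p = 0.00012, adjusted p = 0.0024; rho = 0.76, p = 0.00021; r = 0.69 without the 2 farthest) and endothelial genes (r = 0.64, permutation p = 0.00111, adjusted p = 0.00888; rho = 0.75, p = 0.00046; r = 0.70). Its largest r was with immature Schwann genes (r = 0.78, permutation p = 0.00269, adjusted p = 0.0152; rho = 0.63, p = 0.0041; r = 0.58 without the 2 farthest, permutation p = 0.0168), at 0.56 with an adjusted p of 0.119 without WT library 19. Sox10 also passed with neuron genes (r = 0.74, adjusted p = 0.0228; rho = 0.40, p = 0.0861), duct genes (r = 0.71, adjusted p = 0.00537; rho = 0.71, p = 0.00082) and macrophage genes (r = 0.65, adjusted p = 0.0158; rho = 0.52, p = 0.0265). Without the 2 farthest libraries these stood at r = 0.21, 0.69 and 0.35, so the neuron and macrophage relations were weaker there. Without WT library 19 the neuron, duct and macrophage relations had an adjusted p of 0.240, 0.0866 and 0.120.

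S100b went with immature Schwann genes (r = 0.79, permutation p = 0.0003, adjusted p = 0.0048; rho = 0.64, p = 0.00321). It also went with neuron genes (r = 0.78, permutation p = 0.00037, adjusted p = 0.00493; rho = 0.64, p = 0.00293). Without the 2 libraries farthest from the median of S100b, these stood at r = 0.44 (permutation p = 0.0721) and r = 0.48 (permutation p = 0.0522). S100b passed too with mesenchymal genes (r = 0.69, adjusted p = 0.00809), endothelial genes (r = 0.62, adjusted p = 0.0201) and duct genes (r = 0.54, adjusted p = 0.0446). Spearman's rho was 0.51, 0.62 and 0.31 in that order. Without those 2 libraries r was 0.40 (permutation p = 0.1004), 0.55 (permutation p = 0.046) and 0.12 (permutation p = 0.6357).

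Ngfr passed with 3 lists, those of myelin, immature Schwann and neuron genes, and Cdh19 with that of myelin. For Ngfr and myelin genes r was 0.78 (permutation p = 0.00068, adjusted p = 0.0068; rho = 0.68, p = 0.00205), and 0.65 with an adjusted p of 0.0561 without WT library 19. Without the 2 libraries farthest from the median of Ngfr, r was 0.39 (permutation p = 0.1199). Their omission also narrows the range, so it cannot show that the relation rests on them. With immature Schwann genes Ngfr had r = 0.72 (permutation p = 0.00321, adjusted p = 0.0153; rho = 0.70, p = 0.00121; r = 0.64 without the 2 farthest, permutation p = 0.00311), at 0.51 with an adjusted p of 0.165 without WT library 19. With neuron genes it had r = 0.74 (permutation p = 0.0024, adjusted p = 0.0148; rho = 0.51, p = 0.0279; r = 0.55 without the 2 farthest), at 0.54 with an adjusted p of 0.118 without WT library 19. For Cdh19 and myelin genes r was 0.62 (permutation p = 0.00325, adjusted p = 0.0153; rho = 0.55, p = 0.0153; r = 0.55 without the 2 farthest, permutation p = 0.0268), and 0.66 with an adjusted p of 0.0561 without WT library 19. By rank Cdh19 was farther from 0 with beta cell genes (rho = -0.60, permutation p = 0.00798), where r was -0.40 (adjusted p = 0.149). Foxd3 and Gfap passed with none of the 10 lists; for sparse counts such as theirs that limits what can be seen.

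**Figure D4:**
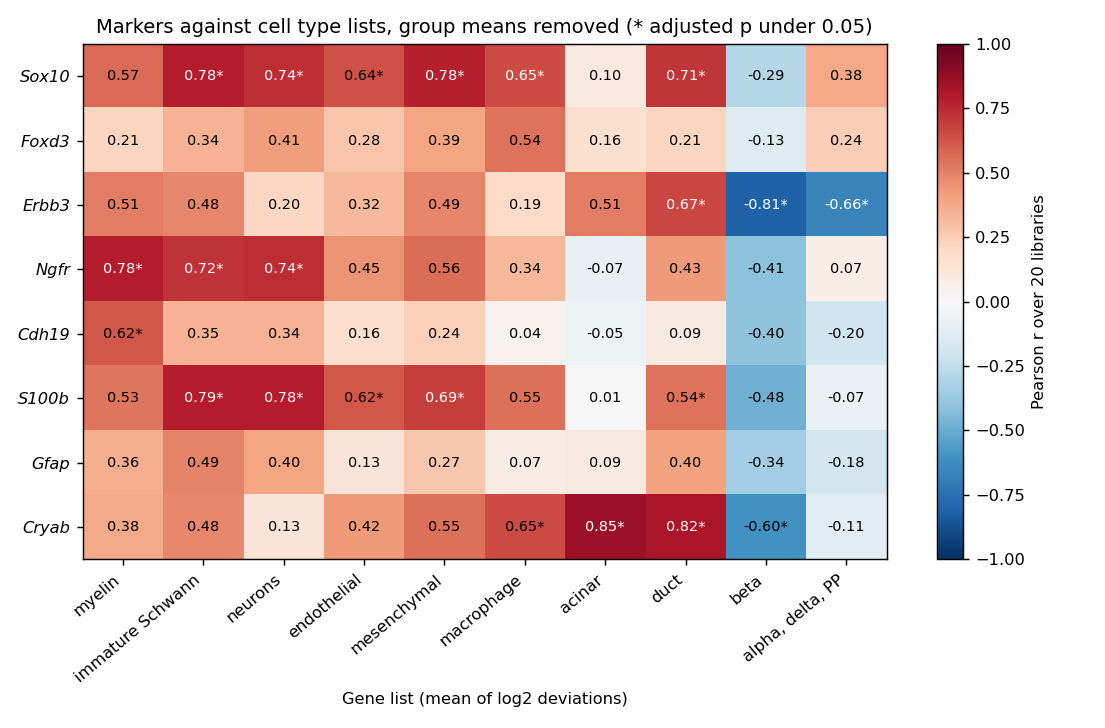
Pearson r over 20 libraries between each marker and the mean of each cell type list, after group means were removed. Rows are markers, columns are lists, colour and number give r, and an asterisk marks an adjusted p under 0.05. Cryab with acinar genes, 0.85, and Erbb3 with beta cell genes, -0.81, have the largest values of either sign.

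**Figure D5:**
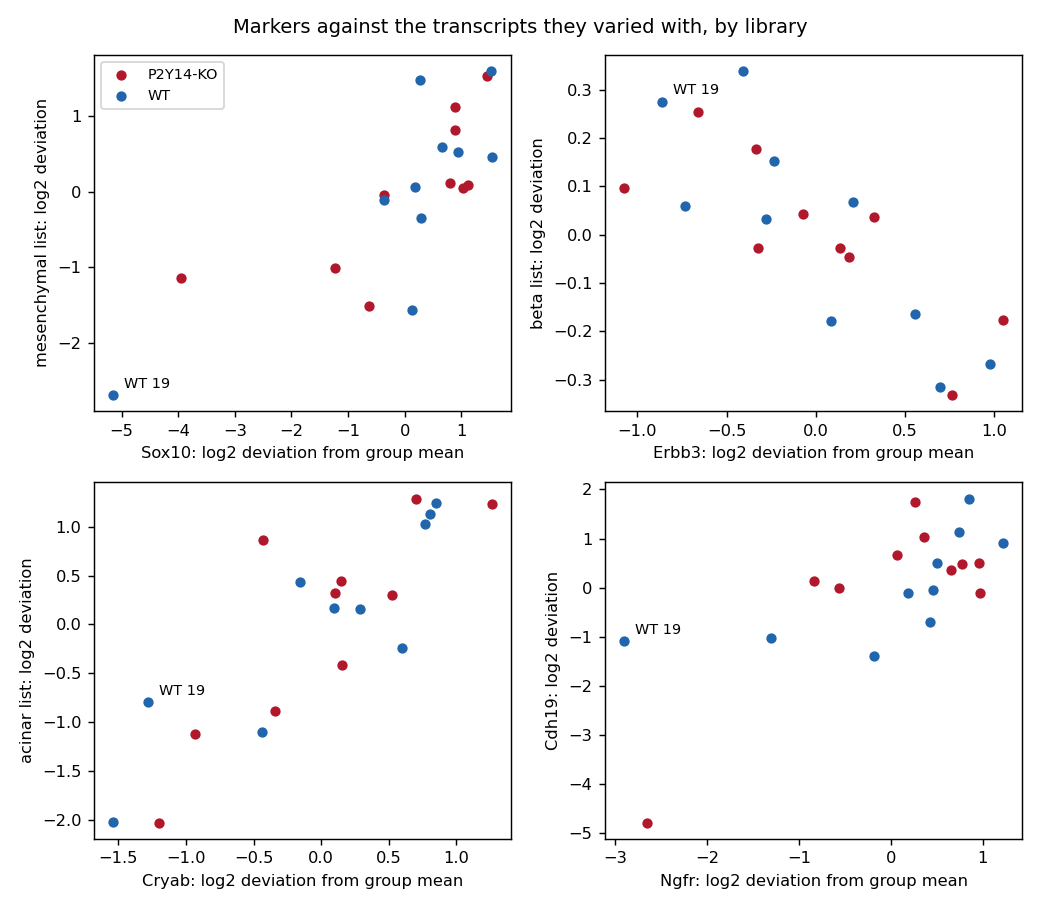
Log2 deviations from the group mean, one point per library, for Sox10 against mesenchymal genes, Erbb3 against beta cell genes, Cryab against acinar genes and Ngfr against Cdh19. P2Y14-KO points are red and WT points blue. WT library 19 is at the low end for Sox10, Ngfr and the mesenchymal list.

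Individual genes with the most similar pattern, found among all tested genes, are given as a description. For Sox10 these were Hand2 (r = 0.92), Lmod1, a leiomodin of smooth muscle (0.92), and Megf6 (0.90). Ngfr had Chrnb4, a nicotinic receptor subunit of autonomic neurons (0.90), Adgrb2 (0.88) and Adam11 (0.88). For Erbb3 they were Sypl (0.89), Liph (0.87) and Zfp36l1 (0.87), and for Cryab Psmb10 (0.92), Prdx4 (0.92) and Tff2 (0.91), the last also in the duct list. S100b had Fam124a (0.88), Asb2 (0.86) and Rnf125 (0.86). Gfap had the lowest, at 0.78 for the unnamed ENSMUSG00000092137, 0.76 for the chemokine gene Cxcl1 and 0.76 for Adss.

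Genes that act with the markers were read from the same fit. Of 15 tested myelin genes of Schwann cells and 13 genes of non-myelinating or immature Schwann cells, limma called 0, edgeR 0 and DESeq2 0, with 1 and 2 at an unadjusted p under 0.05, all lower in P2Y14-KO. Mbp, the cytoplasmic myelin protein, was at 2733 ± 1120 in P2Y14-KO and 2661 ± 629 in WT (SD, n = 10 each, adjusted p = 0.992). The medians of the lists were 0.03 for myelin and -0.16 for immature genes. Of the immature genes, Gap43, a growth cone protein, stood at -0.38 on the log2 scale (adjusted p = 0.4997), and Gfra3, the artemin co-receptor, at -0.65 (adjusted p = 0.558).

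For Erbb3, the list held 13 tested genes: neuregulins, other ErbB ligands, other ErbB receptors and processing enzymes. Limma called 0 of them, as did edgeR and DESeq2, and 1, Egfr, had an unadjusted p under 0.05. The ligands Areg and Btc had log2 fold changes of 1.20 (SE 0.75, adjusted p = 0.661) and 0.92 (SE 0.57, adjusted p = 0.654), and Egfr, the receptor of both, had -0.52 (SE 0.22, adjusted p = 0.507). Around Ngfr, 0 of 9 neurotrophin genes passed by each of the 3 tools, with 3 at an unadjusted p under 0.05. The neurotrophin Ntf3 was at 55.8 ± 29.1 in P2Y14-KO and 31.7 ± 23.4 in WT (SD, n = 10 each), or 1.25 on the log2 scale (SE 0.58, adjusted p = 0.543). Sort1, the co-receptor of p75 for pro-neurotrophins, had -0.27 (adjusted p = 0.514).

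Endothelin and GDNF family signals, which act on neural crest cells, gave the 1 gene that passed among all these lists. Edn3, the endothelin that maintains crest-derived precursors, had values of 224, 562 and 997 in P2Y14-KO, against 1069, 1615 and 2395 in WT (lowest, median, highest). The groups did not overlap, and how many of all tested genes had such a separation was not counted. Its log2 fold change was -1.58 (SE 0.22), with an adjusted p of 5.25e-04 in limma; it was lower in P2Y14-KO in every alternative, with adjusted p between 1.02e-08 and 0.00186. The other 9 tested genes of that list did not pass.

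Of the partners and relatives of Cryab, S100b and Gfap, 0 of 7 small heat shock genes, 0 of 9 S100 genes and 0 of 12 intermediate filament genes passed in limma, edgeR or DESeq2. At an unadjusted p under 0.05 they numbered 0, 1 and 1. On the log2 scale S100a13 was at 0.54 (adjusted p = 0.531), S100a16 at 0.49 (adjusted p = 0.707), and Hspb6, a Cryab relative, at 0.20 (adjusted p = 0.751). Nes, the filament of precursor cells, had -0.62 (SE 0.23, adjusted p = 0.427), at 392 ± 223 in P2Y14-KO and 571 ± 176 in WT (SD, n = 10 each), and Vim had 0.02 (adjusted p = 0.994).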

How the data were processed

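TruSeq RNA v2 libraries were sequenced from islets in 10 P2Y14-knockout and 10 wild-type libraries, per the labels' protocols and titles. In the deposited table each gene has a signal value, its read count normalized with DESeq by a size factor per library, per the file's name. Per the submitters' processing notes FastQC, TopHat 1.3.3, Bowtie 0.9.9, Cufflinks 1.3.0, DESeq 1.16.0 and the build mm9 were named; the counter, its strand setting and its annotation are not given in these sources. Every column held whole multiples of a step, so whole reads were recovered for 100% of non-zero values within 0.05 reads, and edgeR 4.0.16 called 43 genes and DESeq2 1.42.0 called 137 on them. Names came from GENCODE M21, with 23950 matched and 2261 identifiers unnamed; it is on GRCm38 and not mm9, so coordinates are given for the RefSeq promoter windows alone, with their build GRCm38.p6. Knockout columns carry the labels' replicate numbers; wild-type columns are numbered 11 to 20 where the labels count 1 to 10, so wild-type libraries have no replicate number.

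Differences were tested with limma 3.58.1 in R 4.3.3 (lmFit, eBayes with trend) on log2(value + 1) of genes with a mean of at least 10, genotype as the sole term, Benjamini-Hochberg adjustment over 17482 genes. The pseudocount understates changes of low genes. Correlations used deviations from group means, 100000 permutations within groups and Benjamini-Hochberg adjustment within 28 and 80 pairs (Python 3.11.15, scipy 1.17.1). All 90 same-group library pairs differed beyond counting noise (lowest chi-square per degree of freedom 76.7). Of 204 listed genes, Pax3 and Slc18a3 were not in the table. The members, lists and comparisons were chosen with earlier results of these data known. Named genes were P2ry14, the members, genes past the threshold in each pathway or Schwann list or else up to 4 with the smallest p and the 2 of highest mean, and the 3 most similar to each member; some are given by count, and the values of some are not reported here. Alternatives were pseudocounts 0.5 and 10, no filter or a mean of at least 100, TMM, quantile normalization, robust eBayes, library weights, covariates (acinar list, mesenchymal list, Xist), edgeR, DESeq2, each library left out, and, added after seeing the data, the joint omission of knockout replicate 6 and wild-type library 19. The limit of 3 reads given for a library covers counting error only. Steps were tested on simulated data.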

Additional observations from a re-analysis of the deposited data

Results flagged for a closer look

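Gfap in WT library 20 stood far from the other WT libraries, at a normalized read count of 214.1 with the nearest at 27.4, a gap of 0.872 of the group's range (n = 10). It came from 18 groups of libraries looked at, the 8 markers and P2ry14 in each genotype. The limit for such a gap marks about 1 in 20 by chance if values are normally spread, which was not shown for these counts. The gap was taken on the linear scale. On the log2(value + 1) scale the deviation from the WT mean was 4.31 in library 20. The next was 1.39 in WT library 17, and the lowest was -3.44. Without it the log2 fold change of Gfap was 0.67, against 0.19 with all libraries.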

How the results depend on the processing

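The count of genes past the threshold, 49, was 29 with a mean of at least 100, 163 with library weights, 79 with the acinar covariate and 137 with DESeq2, and ranged from 27 to 74 over the 20 fits that each left out 1 library. It was 27 without P2Y14-KO replicate 4, 74 without replicate 6, 32 without replicate 8 or 9 and 31 without WT library 19. No tested marker was called in any setting. Of their 266 alternative values 35 changed sign. Over the leave-one-out fits the log2 fold change ran from -0.22 to 0.80 for Sox10, -0.29 to 0.54 for S100b, -0.19 to 0.67 for Gfap, -0.25 to 0.36 for Ngfr, -0.075 to 0.16 for Erbb3, -0.50 to 0.23 for Cdh19 and -0.061 to 0.24 for Cryab; Foxd3 stayed above 0, at 0.13 to 0.83. The ranges of Mbp (-0.13 to 0.054), Gjb1 (-0.095 to 0.29), Maged1 (-0.063 to 0.023), Hspb8 (-0.17 to 0.028), S100a4 (-0.41 to 0.081), S100a10 (-0.16 to 0.19) and Vim (-0.25 to 0.26) also crossed 0. Signs turned with library weights for Cdh19 (0.13), Mbp (0.056), Maged1 (0.030), Hspb8 (0.036), S100a4 (0.12) and S100a10 (0.18); with quantile normalization for Maged1 (0.018); with the acinar covariate for Gjb1 (-0.024) and Vim (-0.013); with the mesenchymal covariate for Vim (-0.070); with the Xist covariate for Gfap (-0.020) and Ngfr (-0.042); with edgeR for Gfap (-0.41), Mbp (0.031) and S100a10 (0.030); and with DESeq2 for Gfap (-0.47), Mbp (0.039) and S100a10 (0.032). Leaving out P2Y14-KO replicate 6 and WT library 19 together, chosen after seeing the data, gave Sox10 -0.34, S100b -0.16, Erbb3 -0.046, Cdh19 0.10, Cryab -0.11, Gjb1 -0.20, Maged1 0.0041 and Vim -0.27; no cause was tested. P2ry14 passed with the acinar covariate (adjusted p = 0.0406), in DESeq2 (0.0144) and without P2Y14-KO replicate 5 (0.0283). Correlated marker and list pairs fell to 8 without WT library 19. With a mean of at least 100, Erbb3 and Cryab were left. No paired analysis was possible because the WT columns carry numbers that the labels do not. Low counts limit Foxd3, S100b and Gfap.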

Other observations

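Th, tyrosine hydroxylase of catecholamine neurons and a gene of the neuron list, was at 14247 normalized counts in WT library 19, the library with the fewest Schwann marker reads. The other 9 WT libraries had 3832 to 8242, with a median of 6285, and the P2Y14-KO libraries had 3283 to 4795, with a median of 4469. DESeq2 called Th lower in P2Y14-KO, while limma and edgeR did not. It was named after its values were seen.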
